A study of Mus musculus with 8 samples.

Results

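The 10 genes described here were 2 transcriptional coactivators of the Hippo pathway (Yap1 and Wwtr1), the 4 DNA-binding partners they share (Tead1, Tead2, Tead3 and Tead4) and 4 target genes (Ctgf, Cyr61, Ankrd1 and Amotl2). They were chosen by name, all 10 were found among the 19945 genes of the count table, and Ctgf and Cyr61 were listed there under their newer symbols Ccn2 and Ccn1. The study isolated islets from wild-type mice, which were aged 6 to 12 weeks when the experiments began, after treatment by oral gavage with vehicle or with FAKi, which is PF-562271, an inhibitor of focal adhesion kinase, given at 50 mg/kg in 2 doses per day for 3 weeks. The islets of 5 mice per condition were collected 10 days after dosing ended, handpicked and pooled, and single cells were sequenced from 1 library per condition. The 8 deposited samples were 4 sequencing lanes of each library, and the files did not keep the lanes apart. With 1 library per condition there was no replicate check and no p-value. Pooled mice, drug and library preparation cannot be told apart in any difference between the libraries.

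In the Hippo pathway, the kinases MST1 and MST2 (genes Stk4 and Stk3) with their partner SAV1 activate the kinases LATS1 and LATS2, which phosphorylate YAP (gene Yap1) and TAZ (gene Wwtr1) and hold them in the cytoplasm. Unphosphorylated YAP and TAZ enter the nucleus and bind TEAD proteins, which recognise DNA but need such partners to activate transcription. CCN2 and CCN1 are secreted matricellular proteins, ANKRD1 is a nuclear ankyrin-repeat protein, and AMOTL2 is a junctional scaffold that binds YAP and restrains it. Yap1 is known to be switched off early in the endocrine lineage of the pancreas and kept on in the ducts. Focal adhesion kinase, the target of the drug, is among the signals that can feed into YAP.

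The vehicle library held 3776 cells with 59514118 unique molecular identifiers (UMIs, each a counted RNA molecule) and the FAKi library held 3183 cells with 57836783. The labels give 8832 and 8437 cells used for sequencing, and all deposited cells were below the 8% limit on mitochondrial RNA that the study set. Levels are given as normalised counts (CPM), the UMIs of a gene per 1000000 UMIs of all genes, both summed over the cells of an annotated class, with exact 95% Poisson intervals in brackets. The intervals cover counting error only, not differences between mice. Classes are those annotated by the authors, and 12 classes were used. Ductal cells (498 vehicle and 156 FAKi), endothelial cells (543 and 269), fibroblasts (264 and 63) and pericytes (137 and 64) were used as annotated. The ductal and endothelial marker lists were each highest in the class of that name, and the shared mesenchymal or mural list was highest in fibroblasts (27528 and 18747 CPM) and next in pericytes (20968 and 13838 CPM). All 4 classes also held β-cell markers, from 20814 CPM in vehicle pericytes to 133132 CPM in FAKi fibroblasts. β-cells (1076 and 1336), α-cells (273 and 434) and δ-cells (328 and 358) are called endocrine cells when summed (1677 and 2128). Some labels went against their markers in part. The δ class joined cluster 6, with 213487 and 219821 CPM of somatostatin mRNA (Sst) in the vehicle and FAKi libraries, to cluster 8, with 6909 and 7524 CPM of Sst and 278292 and 263888 CPM of pancreatic polypeptide mRNA (Ppy). The FAKi droplets annotated as T cells held 45.6% hormone RNA and 108 CPM of summed T cell markers against 1448 CPM in the vehicle library. Vehicle T cells held 1730 CPM of ductal markers, second to ductal cells, 273 CPM of mesenchymal or mural markers and 4 UMIs of Ankrd1. The part of such RNA in the T and B cell background used below was not tested. Acinar_cells_1 held 252262 CPM of β-cell markers against 192135 CPM of acinar markers with FAKi, and 157530 CPM against 227016 CPM with vehicle. Only 4 cell barcodes were shared between the libraries.

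TEAD proteins recognise the core GGAATG, which reads CATTCC on the opposite strand. Its occurrences are shown because the target genes are defined by this factor and were low together in endocrine cells. It was searched on both strands in the 250 bases before each RefSeq transcript start (GRCm38.p6, the build of the deposited data). Of the 7 members with an entry, 6 held the core and Tead2 did not, while 14.4% of all 27025 genes held it in at least 1 such window. Tead1, Tead4 and Ccn2 had no entry in the set of windows searched, which thus did not cover every gene. A match is a description of the letters in this window and was not shown to be a bound site. The cores are in capitals with 12 bases on either side, written 5′ to 3′ along the gene's strand, for the 2 coactivators and the 3 targets that have an entry.
Yap1, chr9:8004720-8004749 (-): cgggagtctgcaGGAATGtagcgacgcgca
Wwtr1, chr3:57576029-57576058 (-): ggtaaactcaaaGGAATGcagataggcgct
Ccn1, chr3:145650071-145650100 (-): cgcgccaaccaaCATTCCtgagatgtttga
Ankrd1 distal, chr19:36120037-36120066 (-): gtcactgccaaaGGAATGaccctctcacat
Ankrd1 proximal, chr19:36119950-36119979 (-): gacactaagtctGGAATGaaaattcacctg
Amotl2, chr9:102717727-102717756 (+): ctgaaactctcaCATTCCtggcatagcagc
Ankrd1 carried 2 cores in its window, as did Tead3 in 1 of its 3 windows, and 0.992% of all 32851 windows did. In the GENCODE vM21 annotation both lay in the 5′ UTR of a longer Ankrd1 transcript, the Amotl2 core lay in the UTR of other Amotl2 transcripts, and the other 3 were upstream of any annotated transcript of their gene.

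Across the 12 classes most members fell into a high group of 4 classes (ductal, endothelial, fibroblast and pericyte) and a low group that held the endocrine, acinar and immune cells, with Tead1 as an exception among the endocrine cells and Tead2 among the acinar cells. Ankrd1 was high in ductal cells alone, and Tead3 (in endothelial cells) and Tead4 (in fibroblasts and pericytes) were near 0 in part of the high group. Yap1 was at 42.1 CPM [37.2 to 47.5] in vehicle ductal cells and 0.719 CPM [0.485 to 1.03] in vehicle endocrine cells. The same pair in the FAKi library was 41.9 CPM [33.7 to 51.4] and 0.721 CPM [0.505 to 0.998]. Tead1 was at 33.7 CPM [32.0 to 35.5] and 33.3 CPM [31.7 to 34.9] in the endocrine cells of the 2 libraries. Over the RNA that was not hormone RNA, it was at 74.2 CPM and 73.3 CPM there.

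**Figure D1:**
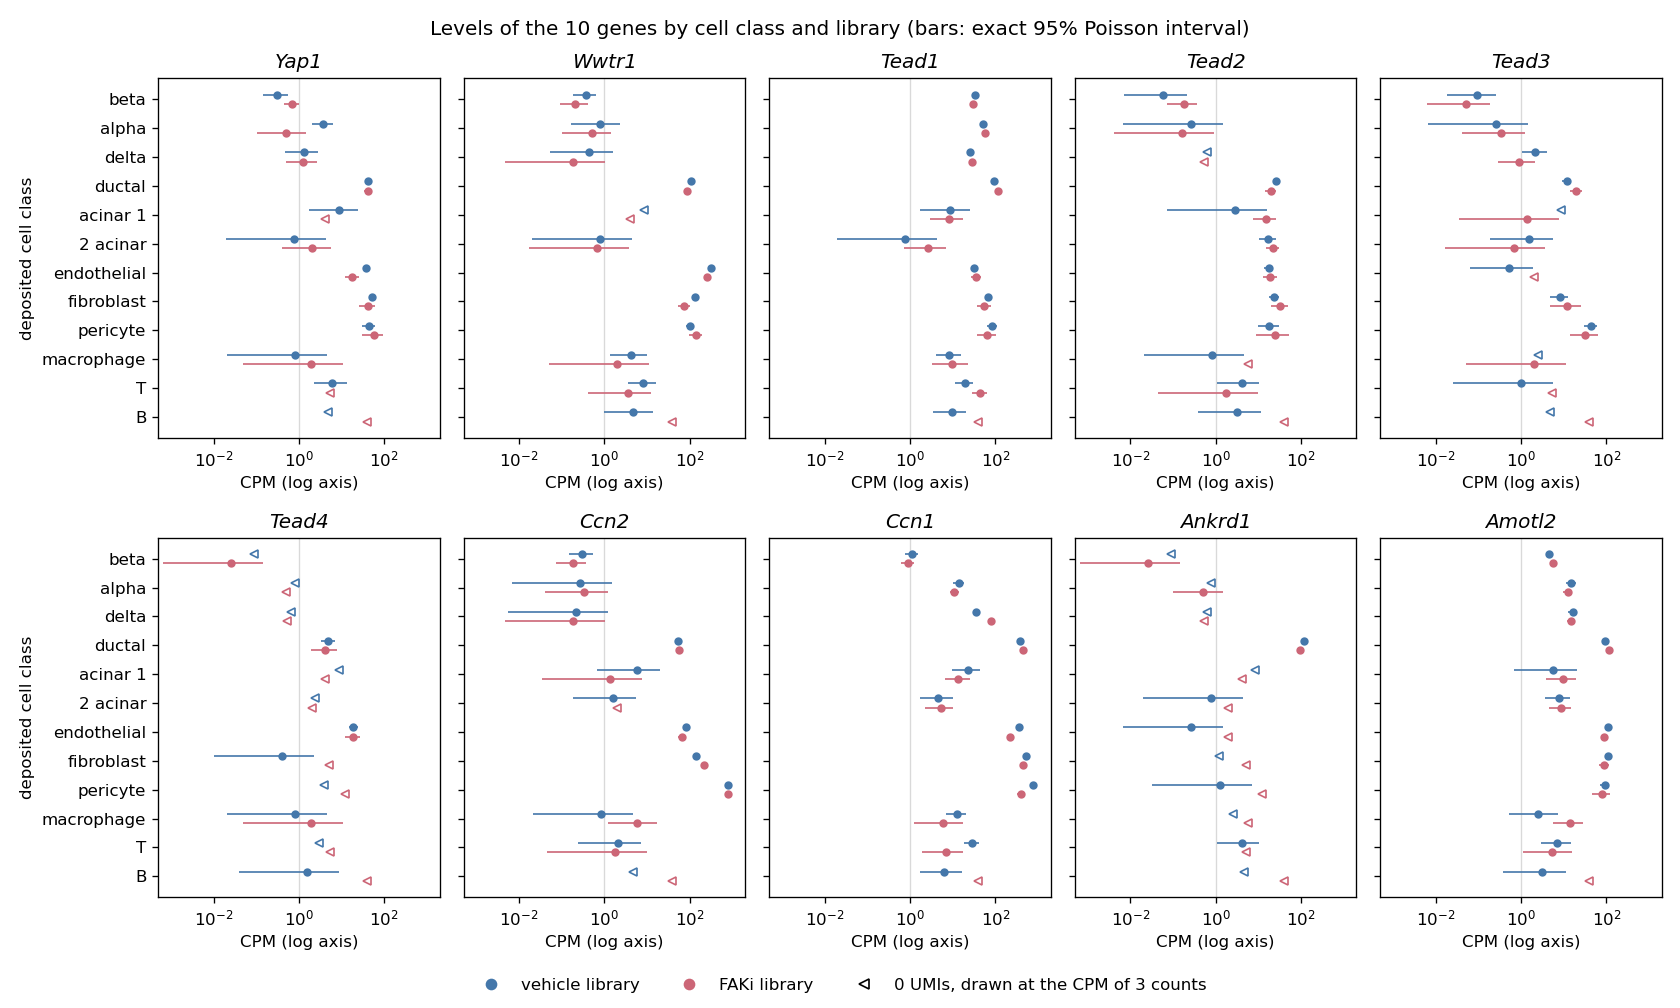
Level of each of the 10 genes in each annotated class, in CPM on a log axis, with 1 point per library and exact 95% Poisson intervals as bars; open triangles mark classes with 0 UMIs, drawn at the CPM that 3 counts would give. The 4 ductal, endothelial, fibroblast and pericyte classes lie to the right for most genes, and the endocrine points lie to the left of them for Yap1, Wwtr1, Tead2, Ccn2, Ccn1 and Amotl2. Tead1 is also found in endocrine cells, and Tead3, Tead4 and Ankrd1 are near 0 in some of the 4 classes too.

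Yap1 did not separate the 4 high classes from each other in the vehicle library, where fibroblasts had 52.4 CPM [43.9 to 62.2], pericytes 43.0 CPM [29.6 to 60.4], ductal cells 42.1 CPM and endothelial cells 38.3 CPM [32.4 to 45.1]. Each interval in that order overlapped that of its neighbour. In the FAKi library pericytes had 56.4 CPM [30.8 to 94.6], fibroblasts 41.1 CPM [26.3 to 61.1] and ductal cells 41.9 CPM, and endothelial cells stood below them at 18.0 CPM [11.8 to 26.1]. Every other class had at most 14 Yap1 UMIs with vehicle and at most 26 with FAKi.

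Among endocrine cells, Yap1 counted 10 UMIs in 1076 vehicle β-cells, or 0.300 CPM [0.144 to 0.553], and 26 UMIs in 1336 FAKi β-cells, or 0.677 CPM [0.443 to 0.993]. α-cells had 14 UMIs in the vehicle library (3.69 CPM) and 3 in the FAKi library (0.499 CPM). δ-cells had 6 and 7 UMIs, all but 1 of them in the Ppy-rich cluster 8, while the Sst-rich cluster 6 had 0 UMIs in 188 vehicle cells and 1 UMI in 195 FAKi cells. All 3 endocrine classes were thus far below the 4 high classes in both libraries.

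A UMI of Yap1 was seen in 0.929% of vehicle β-cells and 1.80% of FAKi β-cells, against 37.6% and 40.4% of ductal cells. T and B cells, which should lack the gene, showed a UMI in 1.07% of vehicle cells and 0 of 37 FAKi cells at median depths of 3842 and 7645 UMIs, where β-cells had 30792.5 and 30427.5 (of the 37 FAKi cells, 14 held over 5% hormone RNA). With each cell thinned to 3000 UMIs, the share was 0 of 1034 in vehicle β-cells, which allows up to 0.290% (limit of 3 counts), and 0.471% in FAKi β-cells (6 of 1273), 13.1% and 15.5% in ductal cells, and 0.529% in vehicle T and B cells. Thinning left out 42 and 63 β-cells, 33 and 8 ductal cells and 92 and 7 T and B cells. At matched depth the vehicle share in β-cells was not above that in lymphocytes. The lymphocyte share rests on 1 cell, in classes that also held ductal markers (1730 CPM in vehicle T cells). The 30 FAKi lymphocytes, which allow a share of up to 10.0%, were too few to set a background for FAKi β-cells.

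Wwtr1, which encodes TAZ, had a different order. Endothelial cells had the highest level, 308 CPM [290 to 326] with vehicle and 258 CPM [233 to 285] with FAKi, above every other class in both. Fibroblasts (129 CPM [116 to 144]), ductal cells (109 CPM [101 to 118]) and pericytes (102 CPM [80.4 to 127]) followed in the vehicle library with neighbouring intervals that overlapped. The FAKi order was pericytes (141 CPM [98.2 to 196]), ductal cells (87.5 CPM [75.5 to 101]) and fibroblasts (73.6 CPM [53.2 to 99.1]).

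Wwtr1 was near 0 in endocrine cells, with 17 UMIs (0.407 CPM) with vehicle and 12 UMIs (0.240 CPM) with FAKi. Those levels were below the 6.79 CPM [3.39 to 12.2] of vehicle T and B cells, which also held ductal and mesenchymal or mural markers. A UMI was seen in 75.5% and 65.1% of endothelial cells and in 0.954% and 0.517% of endocrine cells, against 2.85% and 5.41% of T and B cells. Thinned to 3000 UMIs, the shares were 61.6% and 56.3% of endothelial cells, 0 of 1595 (up to 0.188%) and 3 of 2016 endocrine cells, and 1.59% and 3.33% of T and B cells.

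The ratio of Wwtr1 to Yap1 UMIs set endothelial cells apart from the other 3 high classes. It was 8.03 [6.75 to 9.61] in vehicle endothelial cells, against 2.60 [2.25 to 3.01] in ductal cells, 2.47 [2.01 to 3.05] in fibroblasts and 2.36 [1.55 to 3.67] in pericytes. The FAKi ratio was 14.4 [9.72 to 22.1] in endothelial cells and between 1.79 and 2.50 in the other 3. The endothelial interval lay above all 3 others in each library. Since 3′ counting efficiency differs between genes, the ratio is comparable between classes but does not give the relative amount of the 2 mRNAs.

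Tead1 was the only coactivator or TEAD gene found well above background in endocrine cells. Its order in the vehicle library ran from ductal cells (95.4 CPM [87.9 to 103]) through pericytes (84.7 CPM [65.4 to 108]), fibroblasts (67.1 CPM [57.4 to 78.0]) and α-cells (52.0 CPM [45.0 to 59.8]) to β-cells (32.7 CPM [30.8 to 34.7]), endothelial cells (32.0 CPM [26.5 to 38.2]) and δ-cells (25.9 CPM [21.5 to 31.0]). The only step between neighbours with intervals apart was that from α-cells to β-cells. The endocrine values of the FAKi library were 57.7 CPM [51.8 to 64.1] in α-cells, 30.1 CPM [28.4 to 31.9] in β-cells and 28.9 CPM [24.6 to 33.7] in δ-cells, with ductal cells at 118 CPM [104 to 134]. α-cells were above β-cells and δ-cells in both libraries on this scale. Over the RNA that was not hormone RNA, vehicle α-cells had 79.0 CPM, β-cells 80.3 CPM and δ-cells 41.6 CPM, and FAKi α-cells had 85.2 CPM, β-cells 76.1 CPM and δ-cells 47.0 CPM. The ratio of α-cells to β-cells was then 0.984 [0.841 to 1.15] and 1.12 [0.99 to 1.26], so that the difference held against δ-cells but was not detectable against β-cells.

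The share of cells with a Tead1 UMI was 58.1% and 52.1% of β-cells, 44.0% and 50.5% of α-cells and 58.4% and 64.7% of ductal cells. Thinned to 3000 UMIs, it was 8.90% and 9.03% of β-cells, 16.0% and 17.5% of α-cells, 7.85% and 7.81% of δ-cells and 26.0% and 28.4% of ductal cells, against 2.12% and 0% of T and B cells. Summed T and B cells had 15.4 CPM and 38.5 CPM of Tead1, but those with under 5% hormone RNA had 10.1 CPM in 273 vehicle cells and 0 UMIs in 23 FAKi cells, and the droplets with at least 5% had 47.7 CPM in 8 vehicle and 51.3 CPM in 14 FAKi cells. In the vehicle library Tead1 in endocrine cells was thus above its level in lymphocyte droplets with little hormone RNA, while the 23 such FAKi droplets were too few to set a low limit.

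The other 3 TEAD genes were each found in fewer classes. Tead2 was at 26.6 CPM [22.7 to 30.9] in vehicle ductal cells, 23.8 CPM [18.2 to 30.7] in fibroblasts, 18.3 CPM [9.98 to 30.6] in pericytes and 17.5 CPM [13.5 to 22.2] in endothelial cells, with overlapping neighbours. The class 2_Acinar_cells, the annotated acinar class with the higher acinar marker level, also held it, at 17.1 CPM [10.7 to 25.8] (vehicle) and 21.9 CPM [15.1 to 30.7] (FAKi). Endocrine cells had 3 Tead2 UMIs with vehicle and 8 with FAKi, and none in either library lay in δ-cells.

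Tead2 was the only member whose level in 2_Acinar_cells could not be told from that in ductal cells in both libraries. Its ratio to ductal cells there was 0.643 [0.392 to 1.01] with vehicle and 1.11 [0.681 to 1.78] with FAKi, while Tead1 had 1 and 4 UMIs in the same cells and Yap1 1 and 3. A Tead2 UMI was seen in 16.3% (86 vehicle cells) and 25.4% (114 FAKi cells) of this class at median depths of 7931 and 7280.5 UMIs, against 1.78% and 2.70% of T and B cells. Thinned to 3000 UMIs the shares were 7.79% and 6.38%, close to the 7.74% and 6.08% of ductal cells, and 0.529% and 0% in T and B cells. The other acinar class, Acinar_cells_1, had median depths of only 1480 and 1140 UMIs and 1 and 11 Tead2 UMIs (2.83 CPM [0.0717 to 15.8] and 15.0 CPM [7.47 to 26.8]).

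Counts of members low in acinar cells say little about them. 9 of 10 members in each library were at most 0.25 of the ductal level in 2_Acinar_cells, but so were 86.7% of all genes tested with vehicle and 86.3% with FAKi. In Acinar_cells_1 it was 10 and 9 of 10 members against 63.3% and 61.5% of genes.

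Tead3 was highest in pericytes, at 43.0 CPM [29.6 to 60.4] with vehicle and 32.2 CPM [13.9 to 63.5] with FAKi. Ductal cells had 11.8 CPM [9.30 to 14.9] and 19.3 CPM [13.9 to 26.1], and fibroblasts 7.94 CPM [4.85 to 12.3] and 12.0 CPM [4.82 to 24.7]. Endothelial cells had 2 UMIs with vehicle and 0 with FAKi, and endocrine cells had 14 UMIs and 9 UMIs, with overlapping CPM intervals in each library. Of the endocrine UMIs, 10 with vehicle and 5 with FAKi lay in δ-cells.

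Tead4 was found in endothelial and ductal cells. Endothelial cells had 72 UMIs, 19.0 CPM [14.9 to 24.0], with vehicle and 28 UMIs, 18.6 CPM [12.4 to 26.9], with FAKi, and ductal cells had 30 UMIs (4.80 CPM [3.24 to 6.86]) and 9 UMIs (4.14 CPM [1.89 to 7.87]). Fibroblasts had 1 and 0 UMIs, pericytes had 0 in both, and endocrine cells had 0 UMIs in 1677 vehicle cells and 1 UMI in 2128 FAKi cells. Tead4 and Tead3 were thus nearly complementary between endothelial cells and pericytes in the vehicle library. In FAKi pericytes the exact interval of 0 Tead4 UMIs reached 14.9 CPM, which overlapped that of FAKi endothelial cells.

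Among the target genes, Ccn2 was highest in pericytes, at 795 CPM [733 to 861] with vehicle and 797 CPM [690 to 917] with FAKi. Fibroblasts followed at 140 CPM [126 to 155] and 219 CPM [183 to 260], then endothelial cells at 80.9 CPM [72.1 to 90.5] and 65.2 CPM [52.9 to 79.5] and ductal cells at 54.1 CPM [48.5 to 60.2] and 57.1 CPM [47.5 to 68.1]. Only the endothelial and ductal intervals of the FAKi library overlapped. In endocrine cells Ccn2 counted 12 UMIs with vehicle and 10 with FAKi.

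Ccn1 was high in all 4 of those classes and was also well counted in δ-cells. The vehicle levels were 772 CPM [711 to 837] in pericytes, 521 CPM [493 to 550] in fibroblasts, 382 CPM [367 to 397] in ductal cells and 359 CPM [340 to 379] in endothelial cells. The FAKi levels were 395 CPM [320 to 481], 452 CPM [399 to 510], 453 CPM [425 to 482] and 226 CPM [202 to 251] in the same order. Only the ductal and endothelial intervals overlapped in the vehicle library, whereas in the FAKi library those of pericytes, fibroblasts and ductal cells all did and the endothelial interval lay below.

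The Ccn1 window before the transcript start, 250 bases at chr3:145649986-145650235 on the minus strand, is given whole because Ccn1 was the member counted as different between the libraries in δ-cells. It holds 1 TEAD core, in capitals, and lies outside annotated UTRs.
Ccn1 upstream window: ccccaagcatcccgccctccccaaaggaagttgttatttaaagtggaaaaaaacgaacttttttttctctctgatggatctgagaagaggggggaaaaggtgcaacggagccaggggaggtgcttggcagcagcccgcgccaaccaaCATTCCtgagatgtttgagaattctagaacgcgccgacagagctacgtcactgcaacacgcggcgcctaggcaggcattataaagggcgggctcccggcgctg

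Ankrd1 was found in ductal cells and almost nowhere else. Ductal cells had 744 UMIs, 119 CPM [111 to 128], with vehicle and 210 UMIs, 96.7 CPM [84.0 to 111], with FAKi. No other class had more than 4 UMIs, with 4 in vehicle T cells, 3 in FAKi α-cells and 1 or 0 elsewhere. Within the ductal class the gene was uneven, with a UMI in 33.3% and 38.5% of cells, and the tenth of the cells with the most UMIs (49 and 15 cells) held 76.5% and 66.2% of all Ankrd1 UMIs.

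Amotl2 had nearly the same level in all 4 high classes. In the vehicle library it was 111 CPM [98.2 to 125] in fibroblasts, 108 CPM [97.9 to 119] in endothelial cells, 91.3 CPM [71.1 to 115] in pericytes and 90.1 CPM [82.8 to 97.9] in ductal cells. In the FAKi library it was 113 CPM [99.5 to 128] in ductal cells, 89.0 CPM [66.4 to 117] in fibroblasts, 88.5 CPM [74.1 to 105] in endothelial cells and 76.5 CPM [46.1 to 119] in pericytes, with overlapping neighbours throughout. δ-cells had 16.3 CPM and 15.0 CPM, α-cells 15.0 CPM and 12.3 CPM, and β-cells 4.57 CPM and 5.45 CPM. T and B cells had 5.56 CPM [2.54 to 10.5] and 4.62 CPM [0.952 to 13.5], so the β-cell level of Amotl2 was within the lymphocyte interval. Over the RNA that was not hormone RNA, β-cells had 11.2 CPM and 13.8 CPM, also within the lymphocyte intervals of 2.72 to 11.3 CPM and 1.60 to 22.6 CPM. The FAKi interval rests on 3 UMIs, all of them in the 14 droplets with at least 5% hormone RNA, so it sets no background for FAKi β-cells.

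Set against ductal cells, 9 of the 10 genes were at most 0.25 of the ductal CPM in endocrine cells in each library, where 20.2% of all 14390 genes tested met that limit with vehicle and 18.0% of 14070 with FAKi. The exception was Tead1, at 0.353 [0.321 to 0.390] and 0.281 [0.247 to 0.322] of the ductal level. The median ratio of the 10 genes was 0.0155 with vehicle and 0.00871 with FAKi, and that of all genes was 0.532 and 0.531. β-cells and α-cells gave 9 of 10 in each library, against 24.7% and 22.8% of genes for β-cells and 16.8% and 13.2% for α-cells. δ-cells gave 9 of 10 with vehicle and 10 of 10 with FAKi, against 15.0% and 13.0% of genes.

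The size of the difference varied between members. Yap1 was 58.6-fold lower [40.1 to 88.6] in vehicle endocrine cells than in ductal cells and 58.1-fold lower [39.1 to 88.0] in the FAKi library. Wwtr1 was 268-fold lower [166 to 463] and 364-fold lower [204 to 717]. The gene for TAZ was thus further below the ductal level than that for YAP in both libraries, with intervals that did not overlap, but these folds rest on 17 and 12 endocrine UMIs. With the mean of each cell's CPM the vehicle ratio of Wwtr1 was 0.0155 (Yap1 0.0210), and with cells thinned to 1000 UMIs its FAKi ratio was 0.0246 (Yap1 0.0148), where the order turned.

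The remaining TEAD genes showed the same order of difference. Tead2 was at 0.00271 [0.000552 to 0.00804] and 0.00809 [0.00329 to 0.0174] of the ductal level, and Tead3 at 0.0283 [0.0148 to 0.0506] and 0.00932 [0.00399 to 0.0194]. Tead4, with 0 endocrine UMIs in the vehicle library, was at least 66.8-fold lower (limit of 3 counts over the class), and in the FAKi library its ratio was 0.00483 [0.00011 to 0.0349] on 1 UMI. All 3 stood more than 10-fold below ductal cells, in contrast to Tead1.

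The target genes ranged from Ankrd1 to Amotl2. Ankrd1 was at least 1657-fold lower in vehicle endocrine cells, which had 0 UMIs, and at 0.000829 [0.000224 to 0.00215] of the ductal level in the FAKi library. Ccn2 was 188-fold lower [106 to 368] and 285-fold lower [150 to 609], on 12 and 10 endocrine UMIs, and its FAKi ratio was 0.00351, or 0.0147 with the mean of each cell's CPM. Ccn1 was 62.5-fold lower [54.9 to 71.4] and 41.2-fold lower [37.1 to 45.8], and Amotl2 13.2-fold lower [11.4 to 15.3] and 15.4-fold lower [13.1 to 18.2].

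Against endothelial cells the count was 8 of 10 with vehicle and 7 of 10 with FAKi, where 18.1% and 16.0% of genes met the limit. Among members with at least 20 UMIs in the pair it was 7 of 8 in both. Tead1 was at 1.05 [0.875 to 1.28] and 0.944 [0.718 to 1.27] of the endothelial level, but 2.18 [1.81 to 2.65] and 1.90 [1.45 to 2.55] times that level over the RNA that was not hormone RNA. Tead3 and Ankrd1 had too few endothelial UMIs to compare (2 and 0, and 1 and 0), and the count of 8 included Ankrd1 on that single UMI. Wwtr1 was 756-fold lower [470 to 1302] in the vehicle, a ratio of 0.00132 that became 0.00486 with the mean of each cell's CPM, and Tead4 at least 265-fold lower.

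**Figure D2:**
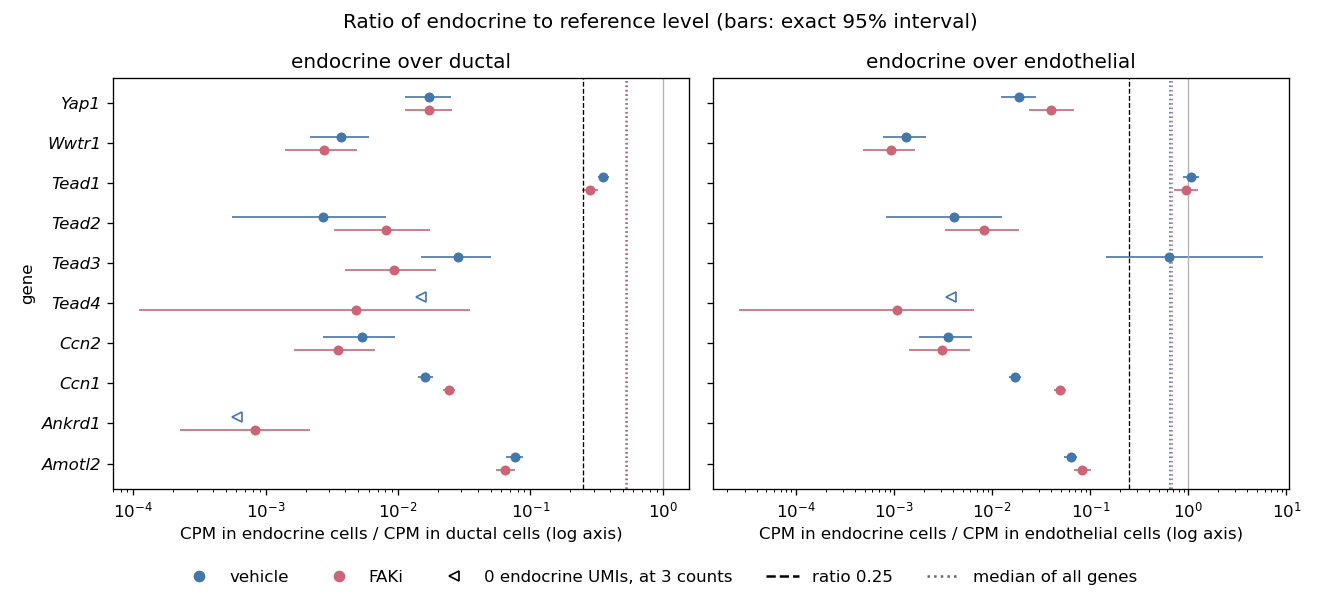
CPM of each gene in endocrine cells over its CPM in ductal and in endothelial cells, per library, on a log axis with exact 95% intervals; the dashed line is the limit of 0.25, the dotted line the median of all genes, triangles stand for 0 endocrine UMIs at 3 counts, and members with at most 3 UMIs in both cells are not drawn. Tead1 is the only gene to the right of the dashed line against ductal cells.

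β-cells held 59.3% and 60.5% hormone RNA, which takes up space in the CPM total, while ductal cells held 3.12% and 5.69%. With the hormone genes or the 20 most abundant genes of each library taken out of the totals, the ratios rose (without the hormone genes, Yap1 to 0.0364 and 0.0358 of the ductal level and Amotl2 to 0.162 and 0.135), the same 9, 9, 8 and 7 genes met the limit, and Tead1 reached at most 0.794 of the ductal level with vehicle and 0.616 with FAKi, and 2.31 and 2.0 times the endothelial level.

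The genes were also counted together within cells, by kind. A UMI of Yap1 or Wwtr1 was seen in 71.3% and 70.5% of ductal cells, 77.9% and 68.0% of endothelial cells, 72.7% and 58.7% of fibroblasts and 49.6% and 48.4% of pericytes, against 1.86% and 2.25% of β-cells. A UMI of any TEAD gene was seen in 71.1% and 73.1% of ductal cells and still in 58.3% and 52.4% of β-cells. T and B cells had a coactivator UMI in 3.56% and 5.41% of cells and a TEAD UMI in 5.34% and 29.7%. The FAKi shares of T and B cells are no lymphocyte background, since all UMIs of Wwtr1, Tead1, Tead2, Ccn1 and Amotl2 lay in the 14 droplets with at least 5% hormone RNA, at a median depth of 34062 UMIs, and the other 23 had 0. All 3 kinds (a coactivator, a TEAD and 1 of the targets Ccn2, Ccn1 and Ankrd1) were seen in 237 of 498 vehicle ductal cells (47.6%) and 82 of 156 FAKi ductal cells (52.6%), but in 1 of 1076 and 2 of 1336 β-cells. T and B cells held all 3 kinds in 3 of 281 vehicle cells (1.07%) and 1 of 37 FAKi cells (2.70%). One of those 3 targets was seen in 78.9% and 86.5% of ductal cells and in 3.35% and 2.62% of β-cells, against 3.91% and 8.11% of T and B cells. Amotl2, which was not among those 3, had a UMI in 12.2% and 13.5% of β-cells and in 2.49% and 8.11% of T and B cells. β-cells therefore held a TEAD gene in fewer cells than ductal cells although they were sequenced more deeply, and rarely held a coactivator or 1 of those 3 targets.

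The other genes of the pathway were taken from 3 lists, chosen with earlier results of these data known. Of 15 upstream kinases and scaffolds with at least 20 UMIs, 6 with vehicle and 7 with FAKi were at most 0.25 of the ductal level in endocrine cells, with a median ratio of 0.332 and 0.314, where 20.2% and 18.0% of all genes met the limit and the median of all genes was 0.532 and 0.531. The highest in vehicle endocrine cells were the TAO kinases that can activate the core cassette, Taok3 (54.4 CPM, ductal 85.2 CPM), Taok1 (49.4 CPM, ductal 92.7 CPM) and Taok2 (34.9 CPM, ductal 21.8 CPM). The lowest were Lats2 (1.77 CPM, ductal 32.7 CPM), Wwc2 (1.96 CPM, ductal 71.1 CPM) and Frmd6 (2.06 CPM, ductal 94.3 CPM). Lats2 and Lats1, the 2 kinases that phosphorylate YAP, thus differed, and Lats1 (named after its values were seen, like Nf2 and Wwc1) was at 30.5 CPM in endocrine and 38.7 CPM in ductal cells.

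Nf2, whose product merlin brings LATS to the membrane, was at 0.867 of the ductal level with vehicle and 0.840 with FAKi. Wwc1, which encodes the scaffold KIBRA, was at 0.0392 and 0.0326. The upstream list was thus mixed, with Lats1 and Nf2 near the ductal level and Lats2, Wwc1, Wwc2 and Frmd6 far below it.

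Of 12 listed inhibitors and partners of YAP or TEAD, 10 were in the table and 7 had at least 20 UMIs, and 5 of these 7 met the limit in each library, with a median ratio of 0.0783 and 0.0793 (all genes, 20.2% and 18.0%). The highest in vehicle endocrine cells were Limd1 (38.7 CPM, ductal 64.3 CPM), Amotl1 (18.8 CPM, ductal 65.5 CPM) and Vgll4 (11.1 CPM, ductal 119 CPM), a TEAD partner that competes with YAP. The lowest were Vgll3 (0.0240 CPM), Dchs1 (0.0479 CPM) and Ajuba (0.0958 CPM), of which only Ajuba, a LIM protein that binds LATS, was well counted in ductal cells (40.8 CPM). Ptpn14, a phosphatase that binds YAP (named after its values were seen), was at 0.0113 and 0.0182 of the ductal level.

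Of 16 other genes known as YAP targets, 12 had at least 20 UMIs and 8 of these met the limit in each library, with a median ratio of 0.0925 and 0.131 over the 12 (all genes, again 20.2% and 18.0%). The highest in vehicle endocrine cells were Asap1 (18.5 CPM, ductal 23.4 CPM), Arhgef17 (16.2 CPM, ductal 40.5 CPM) and Gadd45a (12.9 CPM, ductal 96.8 CPM). The lowest were Foxf2 and Nt5e (0.0240 CPM each), which ductal cells also lacked (0 CPM and 0.320 CPM). Fjx1, Crim1, Tgfb2 and Myof (named after their values were seen) were at 0.00488, 0.0112, 0.0162 and 0.0166 of the vehicle ductal level. Nuak2 (7.31 CPM, ductal 8.80 CPM) and Igfbp3 (0.958 CPM, ductal 2.24 CPM), also named after their values were seen, did not meet the limit. The target list was thus lower than the upstream list by its median and its count in both libraries.

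**Figure D3:**
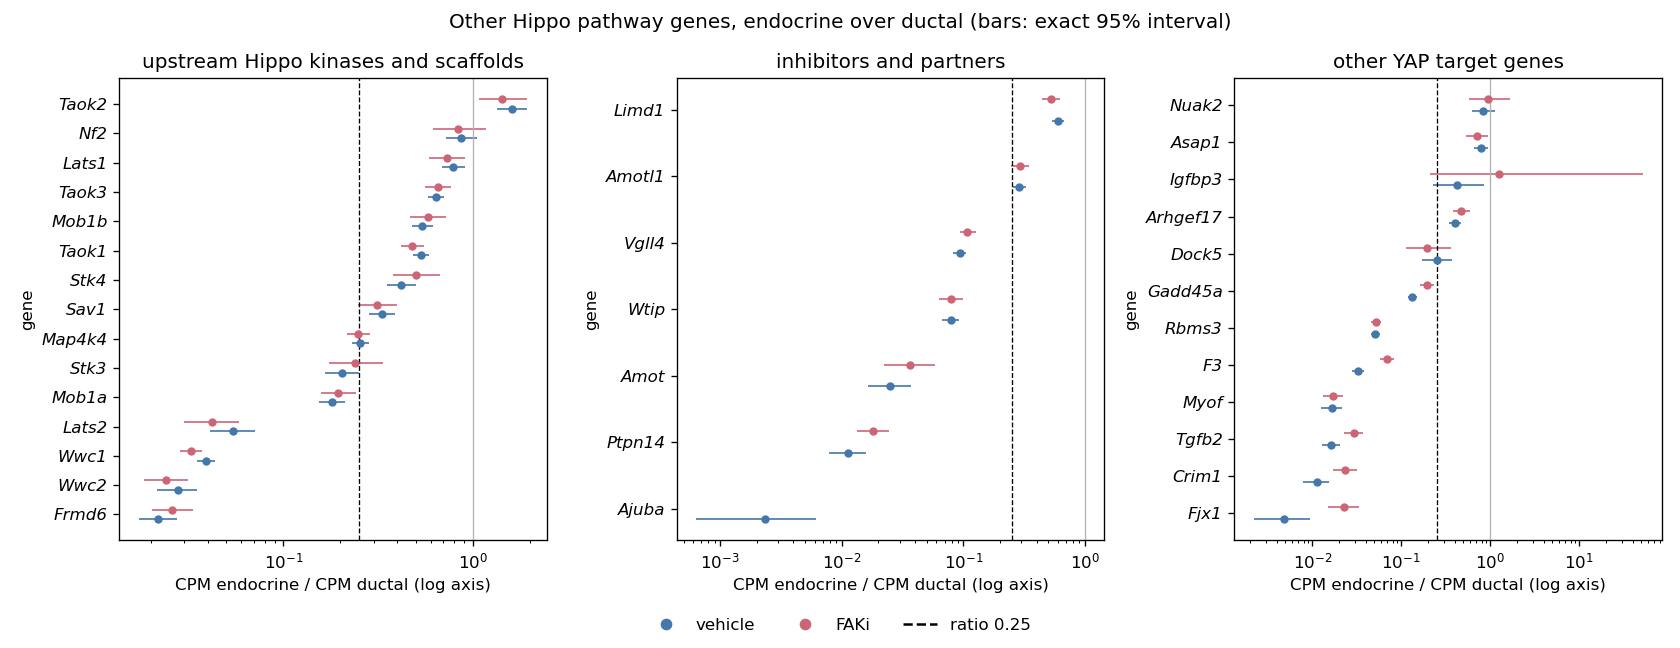
Ratio of endocrine to ductal CPM, on a log axis, for listed pathway genes with at least 20 UMIs, 1 point per gene and library. Genes with 0 endocrine UMIs are not drawn. The upstream kinases and scaffolds spread from about the ductal level downward (median 0.332 in the vehicle library), and the inhibitors and targets lie lower (medians 0.0783 and 0.0925).

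Across classes, the genes whose levels followed Yap1 most closely were sought among 12089 genes, by the lower of the Pearson correlations of log2(CPM + 1) over the 12 classes in the 2 libraries. They were Spry1 (0.934), Fstl1 (0.932), Trip6 (0.925), Nfia (0.924) and Ccn2 (0.918). For Ccn1 they were Serpinh1 (0.942), Ick (0.931), Rhoc (0.929), Adamts1 (0.922) and Amotl2 (0.919). A member thus stood among the 5 closest genes for both, and these correlations are descriptions over 12 points that share a library and its depth.

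The question put by the treatment was which genes differed between the FAKi and the vehicle library within a class. A member was counted when its CPM differed at least 2-fold in either direction on at least 20 UMIs over both libraries. In ductal cells 0 of 10 members did, against 5.76% of genes. The nearest were Tead3 (ratio of FAKi to vehicle 1.63 [1.09 to 2.42]), Amotl2 (1.26 [1.08 to 1.46]), Tead1 (1.24 [1.07 to 1.44]) and Ccn1 (1.19 [1.10 to 1.28]) on the higher side, and Tead2 (0.745 [0.520 to 1.05]), Wwtr1 (0.80 [0.678 to 0.941]) and Ankrd1 (0.812 [0.693 to 0.947]) on the lower side. Yap1 had a ratio of 0.995 [0.775 to 1.27] in ductal cells, so that its 2-fold change in either direction lay outside the counting interval.

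In endothelial cells 1 of 8 members with enough UMIs differed 2-fold, against 6.38% of genes. It was Yap1, with 145 UMIs in 543 vehicle cells (38.3 CPM) and 27 UMIs in 269 FAKi cells (18.0 CPM), a ratio of 0.469 [0.299 to 0.710], where 4.86% of genes were 2-fold lower. The ratio was 0.566 with the mean of each cell's CPM and 0.698 with cells thinned to 1000 UMIs, neither of them 2-fold. Markers of other cells moved in the same class, those of α-cells from 836 to 6067 CPM, those of β-cells from 54561 to 80397 CPM and those of erythrocytes from 2956 to 844 CPM, and in the cells under 5% hormone RNA the Yap1 ratio was 0.491. Ccn1 was at 0.628 [0.556 to 0.708], Ccn2 at 0.806 [0.635 to 1.01], Amotl2 at 0.818 [0.668 to 0.997] and Wwtr1 at 0.839 [0.746 to 0.942]. Tead1, Tead2 and Tead4 were at 1.10, 1.11 and 0.979, with intervals that included 1. Both coactivators and the 3 counted targets thus had ratios under 1, of which that of Ccn2 had an interval that included 1, and the TEAD genes were near 1.

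The share of endothelial cells with a Yap1 UMI was 22.1% with vehicle and 9.29% with FAKi at median depths of 5752 and 4836 UMIs, and 8.39% and 3.52% after thinning to 3000 UMIs (90 and 70 cells left out). The class joined 2 clusters in unequal shares, with 172 of the 543 vehicle cells and 40 of the 269 FAKi cells in cluster 11 and the rest in cluster 3. In cluster 3 Yap1 went from 32.8 CPM (79 UMIs) to 13.7 CPM (17 UMIs), a ratio of 0.418 [0.232 to 0.712], where 4.97% of genes differed 2-fold. In cluster 11 it was 48.1 CPM (66 UMIs) and 38.3 CPM (10 UMIs), a ratio of 0.796 [0.365 to 1.56], where 13.3% did. The intervals of the 2 clusters overlapped, and the difference between them was not tested.

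Ccn2 had its lower ratio in the other cluster. It was at 123 CPM (169 UMIs) in vehicle cells of cluster 11 and 38.3 CPM (10 UMIs) in its FAKi cells, a ratio of 0.311 [0.146 to 0.586], and at 56.8 CPM and 70.9 CPM in cluster 3, a ratio of 1.25 [0.943 to 1.64]. Ccn1 was at 0.610 [0.523 to 0.708] in cluster 3 and 0.917 [0.742 to 1.12] in cluster 11. Of the 2 secreted targets, Ccn2 was thus lower in FAKi cells of cluster 11 and Ccn1 in those of cluster 3, and the differences between clusters were not tested. Summed mesenchymal or mural markers were 149 CPM in vehicle and 41.3 CPM in FAKi endothelial cells, and Col3a1, a fibroblast collagen, had 109 UMIs in 8 vehicle cells of cluster 11 and 0 in its FAKi cells. Without the cells that held a Col3a1 UMI, a choice made after seeing the data, the Ccn2 ratio in cluster 11 was 0.302 [0.142 to 0.571].

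Fibroblasts and pericytes each had 0 of 8 members 2-fold apart, against 11.9% and 9.70% of genes. In fibroblasts Wwtr1 was at 0.568 [0.403 to 0.783] and Ccn2 at 1.57 [1.27 to 1.92]. The 63 FAKi fibroblasts also differed in make-up from the 264 vehicle ones, with 13.6% against 6.73% hormone RNA, 18747 against 27528 CPM of mesenchymal or mural markers and 197 against 42.1 CPM of Schwann cell markers. In the fibroblasts under 5% hormone RNA the ratios were 0.620 and 1.47, and the part of the other markers was not tested. In pericytes Ccn1 was at 0.511 [0.409 to 0.634], just short of the limit of 0.5 (0.480 without the vehicle and FAKi cells with most UMIs), while Ccn2 was at 1.00 [0.85 to 1.18]. The mural genes Acta2 (4824 and 2328 CPM) and Rgs5 (8872 and 6049 CPM) were lower in the FAKi pericytes and acinar markers higher (4081 and 9803 CPM), and their part was not tested. Summed immediate early genes, a list of 15 that cell dissociation also induces, were at 28830 CPM and 23706 CPM in those pericytes and 16205 CPM and 12960 CPM in endothelial cells, and their part in the Ccn1 values was not tested.

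In β-cells 1 of 5 members with enough UMIs differed 2-fold, against 3.62% of genes. It was Yap1, with 10 and 26 UMIs and a ratio of 2.25 [1.05 to 5.24], at levels no higher than the 3.70 CPM of vehicle T and B cells. Erythrocyte markers went from 1233 to 173 CPM in the same class, and their part was not tested. In α-cells Yap1 went the other way on 14 and 3 UMIs, too few to be counted, with a ratio of 0.135 [0.0249 to 0.484], and in endocrine cells together the ratio was 1.00 [0.601 to 1.69]. The count was 0 in cells under 5% mitochondrial counts, after thinning to 1000 UMIs, and with at least 50 UMIs required. Tead1 was at 0.920 [0.846 to 1.00] and Amotl2 at 1.19 [0.963 to 1.48]. By cluster, Amotl2 was at 1.62 [1.23 to 2.15] in cluster 0 (83 vehicle and 145 FAKi UMIs), where 2.93% of genes differed 2-fold. It was at 0.759 [0.470 to 1.23] in cluster 1 and 0.764 [0.434 to 1.33] in cluster 10, and the difference between clusters was not tested. In α-cells 0 of 3 members differed 2-fold, against 3.48% of genes, and in the acinar classes together 0 of 3, against 11.2%.

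**Figure D4:**
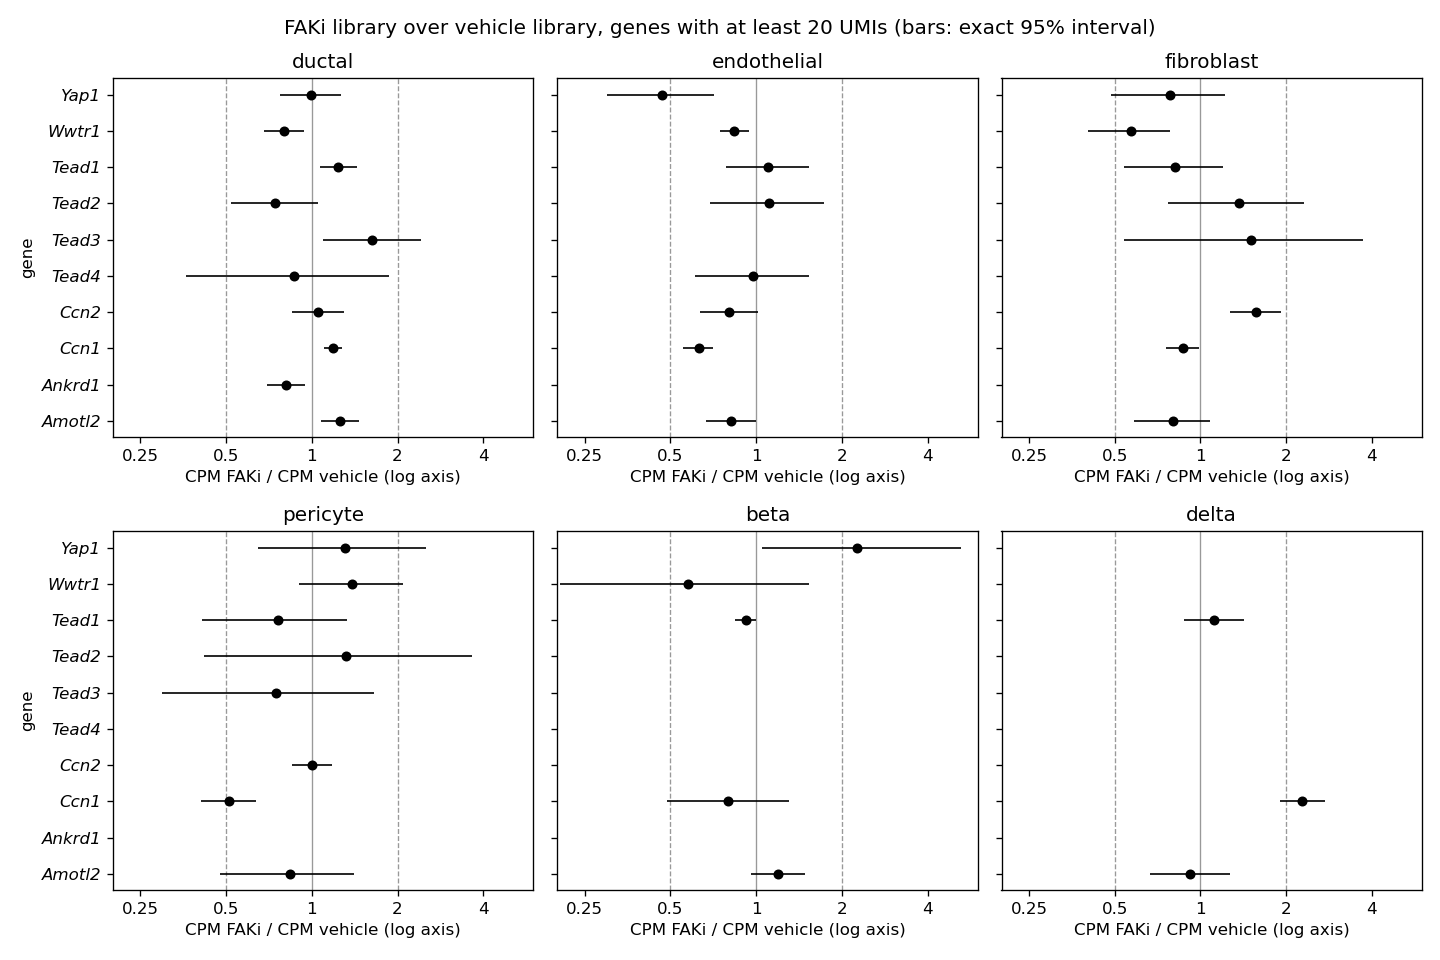
CPM in the FAKi library over CPM in the vehicle library for each gene with at least 20 UMIs in a class, on a log axis with exact 95% intervals; dashed lines mark 0.5 and 2. Yap1 in endothelial cells (0.469) and in β-cells (2.25) and Ccn1 in δ-cells (2.28) lie beyond the lines.

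In δ-cells 1 of 3 members with enough UMIs differed 2-fold, against 2.99% of genes, and it was Ccn1. It had 166 UMIs in 328 vehicle cells (35.6 CPM [30.4 to 41.4]) and 449 UMIs in 358 FAKi cells (81.1 CPM [73.7 to 88.9]), a ratio of 2.28 [1.90 to 2.74]. Tead1 (1.11 [0.874 to 1.42]) and Amotl2 (0.920 [0.666 to 1.27]) were near 1 in the same cells. Markers of erythrocytes went from 32.8 to 1028 CPM in this class and those of acinar cells from 653 to 979 CPM. Mesenchymal or mural markers went from 17.6 to 8.85 CPM and endothelial markers from 22.3 to 15.2 CPM, and the part of these other cells was not tested. Ccn1 in δ-cells was above α-cells (13.7 CPM and 11 CPM), β-cells (1.11 CPM and 0.886 CPM) and T and B cells (19.8 CPM and 6.15 CPM) in both libraries, although the 273 vehicle T and B cells with under 5% hormone RNA had 23.0 CPM [15.8 to 32.5], which overlapped the δ-cell interval.

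The 2 clusters in the δ class were both higher in the FAKi library, from different starting levels. In the Sst-rich cluster 6, Ccn1 was at 68.1 CPM (157 UMIs) with vehicle and 117 CPM (305 UMIs) with FAKi, a ratio of 1.72 [1.42 to 2.10], where 3.35% of genes differed 2-fold. In the Ppy-rich cluster 8 it was at 3.81 CPM (9 UMIs) and 48.9 CPM (144 UMIs), a ratio of 12.8 [6.58 to 28.7], where 3.82% of genes did. Ccn1 was thus well counted in cluster 6 in both libraries and in cluster 8 only in the FAKi library.

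By cells, 48 of 188 vehicle cells (25.5%) and 71 of 195 FAKi cells (36.4%) of cluster 6 had a Ccn1 UMI, and 5 of 140 (3.57%) and 29 of 163 (17.8%) of cluster 8, where T and B cells had 3.56% and 8.11%. Median depths in cluster 8 were 14729 and 21048 UMIs. Thinned to 3000 UMIs the shares were 12.8% and 19.6% in cluster 6, 0 of 106 and 10 of 126 (7.94%) in cluster 8, and 2.12% and 0% in T and B cells. The FAKi counts of cluster 8 were concentrated, with 90.3% of the Ccn1 UMIs in 16 of the 163 cells, and without the cell with most UMIs (26) 118 UMIs in 28 cells were left.

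The cells of cluster 8 with a Ccn1 UMI were rich in Ppy. In the FAKi library they had 311088 CPM of Ppy and 401 CPM of Sst, against 246516 CPM of Ppy and 10146 CPM of Sst in the cells without a Ccn1 UMI. Their glucagon mRNA (Gcg) was 299 CPM, against 77986 CPM in the cells without. By cell, the median was 2 Sst UMIs and 7 Gcg UMIs both with and without Ccn1, so only Ppy differed by its median, at 7891 and 2233.5 UMIs. Median depths of these groups were 25755 and 18032.5 UMIs.

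The Sst-rich cluster 6 held Ccn1 with hardly any Yap1 or Ccn2. Yap1 had 0 UMIs with vehicle and 1 with FAKi, and Ccn2 had 0 in both, which allows 1.30 CPM and 1.15 CPM (limit of 3 counts). In ductal cells, by contrast, Ccn1, Ccn2 and Yap1 were all well counted. Summed immediate early genes were 16864 CPM and 20742 CPM in cluster 6 and 7648 CPM and 11068 CPM in cluster 8, and their part in the Ccn1 values was not tested.

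**Figure D5:**
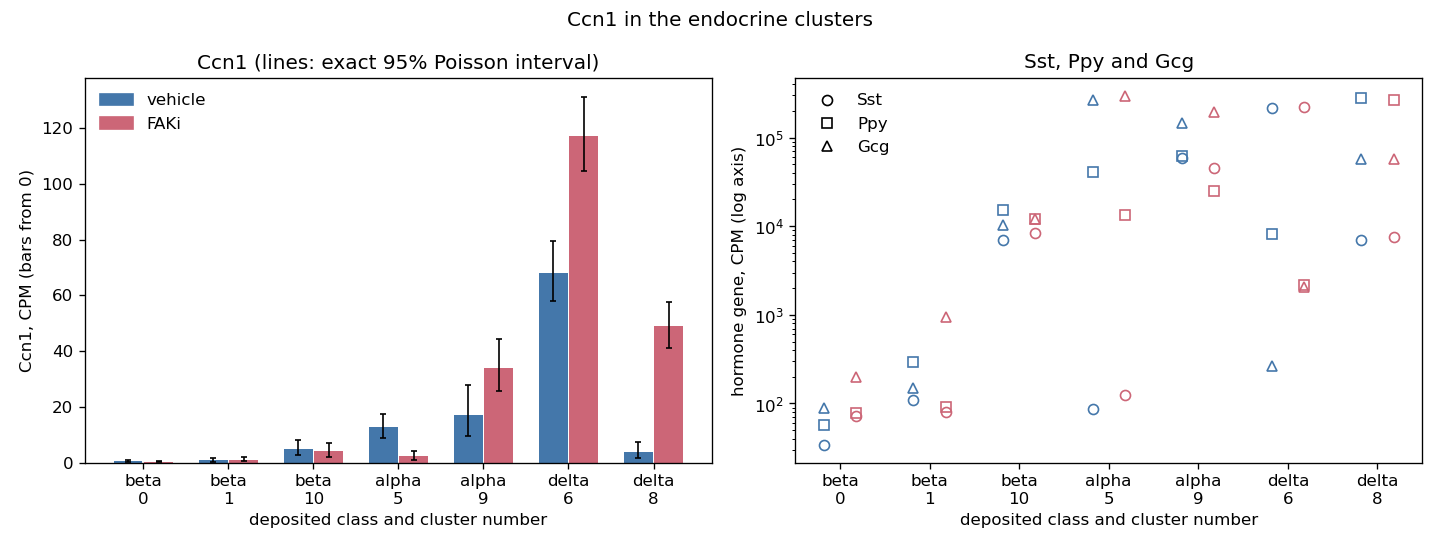
Left, Ccn1 in CPM in each β, α and δ cluster and library, with exact 95% Poisson intervals; right, Sst, Ppy and Gcg in the same clusters in CPM on a log axis. Ccn1 is highest in cluster 6 (68.1 and 117 CPM), and the cluster 8 bar is at 48.9 CPM in the FAKi library and 3.81 CPM in the vehicle library.

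α-cells showed no detectable difference in Ccn1 when summed (13.7 CPM and 11 CPM, ratio 0.801 [0.548 to 1.17]), a ratio that ran from 0.426 to 1.38 over the alternatives. Their 2 clusters had ratios on opposite sides of 1. In cluster 5 Ccn1 was at 12.7 CPM (37 UMIs in 6 cells) and 2.29 CPM (10 UMIs in 9 cells), a ratio of 0.18 [0.0798 to 0.369], where 3.57% of genes differed 2-fold. The share of cells with a UMI was 3.23% and 3.38%, so the cluster 5 values differ by the UMIs of a few cells. The 14 vehicle α-cells with a Ccn1 UMI had 124025 CPM of Ppy and 47564 CPM of Gcg, against 40284 CPM and 249882 CPM in those without. The 28 FAKi α-cells with a Ccn1 UMI had 39751 CPM of Ppy and 217236 CPM of Gcg, against 14872 CPM and 270549 CPM. Sst in α-cells with and without a Ccn1 UMI was 64084 and 10322 CPM with vehicle and 47633 and 10248 CPM with FAKi. By cell, the median Sst count was 2 and 1 UMIs with vehicle and 244 and 1 with FAKi. In cluster 9 Ccn1 was at 17.0 CPM (15 UMIs in 8 of 87 cells) and 34.0 CPM (56 UMIs in 19 of 168 cells). The ratio was 2.0 [1.12 to 3.82], where 5.51% of genes differed 2-fold. Pecam1, an endothelial marker, had 2 and 16 UMIs in this cluster, and its part was not tested. Cluster 9 also held 58406 CPM and 45730 CPM of Sst, and 147657 CPM and 193051 CPM of Gcg, so its values are those of droplets mixed in hormone content.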

How the data were processed

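Single-cell libraries were prepared by the authors with a droplet kit that counts 3′ ends, reads were aligned to mm10 with Cell Ranger, and cells were filtered, integrated, clustered and annotated by the authors. Per the labels, Seurat 3.1 was among the tools. The deposited table holds raw UMI counts per gene and cell, with no normalisation. The mitochondrial percent, cluster and cell class of each cell were deposited by the authors. 

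From these counts, UMIs were summed per annotated class and library and divided by the class total (CPM). Levels carry exact Poisson, shares Clopper-Pearson and ratios conditional binomial intervals at 95%. A gene entered a comparison over all genes with at least 20 UMIs in the pair of groups. With 1 library per condition, a limit of size stands in for a test: at most 0.25 of the reference class, or 2-fold between libraries. A level or share of 0 was given a limit of 3 counts in place of the upper bound of its interval, except for Tead4 in FAKi pericytes. Cells were thinned to 1000 and 3000 UMIs with seed 0, the second chosen after seeing the data, as were the levels of Tead1 and Amotl2 in single endocrine classes over the RNA that was not hormone RNA. No doublets were removed for the main values. Scrublet in scanpy 1.11.5, run as an alternative, called 1.80% of vehicle and 1.79% of FAKi cells. The members and the gene lists were chosen with earlier results of these data known. All 10 members are named, and of each list at most 6 genes, the highest and lowest by CPM in endocrine cells, with any others marked as named after their values were seen. Coverage of the ratio intervals was tested on simulated Poisson counts of whole classes, which follow the model that the intervals assume. The simulation held no differences between cells, so it does not show coverage for counts concentrated in a few cells. Promoter windows came from RefSeq on GRCm38.p6 and transcripts from GENCODE vM21, both the build of the counts. Alternatives were another averaging, totals without hormone or abundant genes, cell filters, thinning, other folds and other UMI minimums. Python 3.11.15, numpy 2.4.6, pandas 2.3.3, scipy 1.17.1 and matplotlib 3.10.9 were used.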

Additional observations from a re-analysis of the deposited data

Results flagged for a closer look

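Yap1 and Ccn1 were on opposite sides of the vehicle library in different classes. The ratio of FAKi to vehicle CPM of Yap1 was 0.469 in endothelial cells and 2.25 in β-cells, the latter on 10 and 26 UMIs, while it was 0.135 in α-cells on 14 and 3 UMIs and 1.00 in endocrine cells together. That of Ccn1 was 2.28 in δ-cells, 0.628 in endothelial cells, 0.511 in pericytes and 0.246 in the droplets annotated as T cells, the last on 28 and 4 UMIs in droplets whose markers went against that label in the FAKi library, where 35.7% of genes differed 2-fold. The differences between classes were not tested, since each condition was 1 library.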

How the results depend on the processing

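The counts of members low in endocrine cells moved little: 9 with vehicle and 9 with FAKi against ductal cells ran from 9 to 10 and from 8 to 10, and 8 and 7 against endothelial cells from 7 to 8 and at 7, over 11 alternatives each. The counts of members 2-fold apart between libraries moved more. In endothelial cells the count of 1 became 2 at a fold of 1.5 (Yap1 and Ccn1) and 3 with at least 1 UMI (Yap1, Tead3 and Ankrd1). It stayed at 1 but was Ccn1 (0.484) in place of Yap1 (0.566) with the mean of each cell's CPM, and Ccn2 (0.419) in place of Yap1 (0.698) with cells thinned to 1000 UMIs. In ductal cells the count of 0 became 1 in cells under 5% mitochondrial counts (Tead3), 1 with cells thinned to 1000 UMIs (Amotl2) and 1 at a fold of 1.5 (Tead3). In β-cells the count of 1 became 3 with the mean of each cell's CPM, 0 in cells under 5% mitochondrial counts, 0 with cells thinned to 1000 UMIs, 0 with at least 50 UMIs, 2 at a fold of 1.5 and 4 with at least 1 UMI. In acinar cells the count of 0 became 1 with the mean of each cell's CPM (Tead2) and 2 with at least 1 UMI. Fewer UMIs or cells by construction apart, the cause was not tested.

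Among single members, 86 of 251 values of endocrine cells over a reference class and 34 of 488 values of FAKi over vehicle moved outside the counting interval, and 3 and 43 lay on the other side of 1. None of those that crossed had been past the size limit with an interval clear of 1. The ratio of Ccn1 in β-cells went from 0.797 to 2.56 with the mean of each cell's CPM. The endothelial ratio of Yap1 ran from 0.442 to 0.698, its β-cell ratio from 1.64 to 2.61, and the δ-cell ratio of Ccn1 from 2.08 to 2.47. No paired analysis was possible because each condition was 1 library, whose lanes are repeat sequencing of the same library and not replicates. The lanes are also not kept apart in the files, and the result comes from no test. Depth limits the low members: in the vehicle library, 0 UMIs of Tead4 or Ankrd1 in endocrine cells allow 0.0719 CPM, whereas 0 UMIs in FAKi B cells allow 39.1 CPM.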
